A study of Rattus norvegicus with 12 samples.

Results

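Complex I genes were compared between the left ventricles of 4 groups of fructose-fed rats. The set holds every gene whose current rat symbol is Nduf followed by a, b, c, s or v and a number, with the assembly factors named Ndufaf included. Of 55 protein-coding symbols that match in RefSeq, 39 had a named probe on the array, and all 39 were tested, out of 11211 genes tested in all. The 16 symbols with no named probe, not analysed here, are Ndufa3, Ndufa4l2, Ndufa7, Ndufa8, Ndufaf2, Ndufb1, Ndufc1, Ndufs6 and 8 gene copies (Ndufb11b and those with Ndufb3l or Ndufb4l in their symbol). A gene was valued by its brightest probe: 31 genes had 1 probe and 8 had several.

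Hearts came from male Sprague-Dawley rats, with 3 arrays in each group and 1 array per sample. All 4 groups ate a diet with 60% fructose for 8 weeks, a way to bring on metabolic syndrome, so no group shows the heart without fructose. The groups were low sodium with angiotensin II (AngII, a pressor hormone), low sodium, normal sodium with AngII, and normal sodium. Low sodium chow held less than 0.01% NaCl and normal sodium chow 0.64%. Subcutaneous AngII, 200 ng/kg/min, ran through the final 4 weeks, and the other rats had no AngII. The samples are whole tissue, so that fewer cells of a type and less RNA per cell cannot be told apart. Replicate numbers are those of the labels, and nothing more is said there of how the samples of a group relate.

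Complex I (NADH dehydrogenase) is the entry point of the respiratory chain, where electrons from NADH pass to ubiquinone while protons are pumped across the inner mitochondrial membrane. Its matrix arm consists of an N module, which oxidises NADH, and a Q module, which reduces ubiquinone; its membrane arm pumps the protons. Core subunits carry the catalysis, accessory subunits stabilise the enzyme, and assembly factors help to build it but are not part of it. Heart muscle, which makes most of its ATP by respiration, is rich in complex I. The measured set held 7 core subunits, 5 accessory subunits of the N module, 2 of the Q module, 16 of the membrane arm, 7 assembly factors, Ndufa4 (now counted to complex IV) and Ndufa10l1. RefSeq lists pseudogenes or further copies under the symbols of 18 of the 39 genes, and Ndufa10 and Ndufa10l1 are near copies of each other, so that their probes may share targets.

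Promoters of the 3 genes with the smallest p in the comparison of diets under AngII, and of the core subunit Ndufs1, are shown because the results below turn on these genes. Each runs 5′ to 3′ from 250 bases before to 50 bases after the gene start (RefSeq, GRCr8), and capitals mark a motif match on either strand. Ndufaf5 lies at chr3:147961362-147961661 (plus strand), Ndufaf3 at chr8:118141674-118141973 (minus), Ndufa6 at chr7:115750268-115750567 (minus) and Ndufs1 at chr9:72073556-72073855 (minus).
Ndufaf5: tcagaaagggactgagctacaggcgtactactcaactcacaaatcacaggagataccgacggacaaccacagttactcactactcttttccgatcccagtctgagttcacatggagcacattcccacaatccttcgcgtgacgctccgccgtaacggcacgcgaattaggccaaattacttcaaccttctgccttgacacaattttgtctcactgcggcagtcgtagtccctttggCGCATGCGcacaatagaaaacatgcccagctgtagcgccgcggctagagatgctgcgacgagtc
Ndufaf3: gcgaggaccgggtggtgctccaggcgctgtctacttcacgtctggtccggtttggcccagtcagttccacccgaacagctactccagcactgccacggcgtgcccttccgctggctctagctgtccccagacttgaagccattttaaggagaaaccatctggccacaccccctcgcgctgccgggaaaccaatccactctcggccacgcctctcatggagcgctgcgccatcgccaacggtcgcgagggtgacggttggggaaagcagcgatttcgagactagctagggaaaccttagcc
Ndufa6: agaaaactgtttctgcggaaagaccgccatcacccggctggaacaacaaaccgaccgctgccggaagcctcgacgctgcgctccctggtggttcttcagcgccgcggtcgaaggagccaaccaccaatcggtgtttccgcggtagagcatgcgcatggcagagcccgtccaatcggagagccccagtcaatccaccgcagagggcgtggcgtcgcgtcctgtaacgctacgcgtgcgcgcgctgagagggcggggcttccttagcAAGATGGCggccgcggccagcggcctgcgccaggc
Ndufs1: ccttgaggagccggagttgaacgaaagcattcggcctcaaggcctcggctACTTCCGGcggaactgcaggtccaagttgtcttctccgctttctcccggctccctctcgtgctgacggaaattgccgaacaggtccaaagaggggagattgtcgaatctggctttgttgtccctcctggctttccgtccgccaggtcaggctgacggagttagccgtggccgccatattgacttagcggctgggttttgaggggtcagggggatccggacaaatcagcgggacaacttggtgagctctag

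Capitals mark a nuclear respiratory factor 1 motif in Ndufaf5, a YY1 motif in Ndufa6 and an ETS motif, read on the opposite strand, in Ndufs1. The Ndufaf3 window held no match to any motif searched. Promoters of 35 of the 39 genes were in the table. The YY1 motif AAGATGGC was in 7 of these 35 (20%), against 3.17% of all 33469 promoters. The nuclear respiratory factor 1 core motif CGCATGCG was in 3 (8.57%, against 1.66%) and the ETS motif CCGGAAGT in 3 (8.57%, against 3.81%). TNAAGGTCA, a motif of estrogen-related receptors, was in 1 (2.86%, against 1.2%). TATAAA was also in 1, against 14.2% of all promoters. Both strands were searched, and matches of different motifs overlapped in 0 of the 35. GC content had a median of 56.3% in the complex I promoters and 51.7% in all promoters. These are descriptions of sequence and say nothing of what binds there.

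The signal of an array is given as log2 of the processed intensity minus the array's 75th percentile over probes, which lay between 856 and 1237 intensity units. Local background was 20 to 29.5 units and no spot was saturated. Cardiomyocyte markers were bright on every array (mean level 7.30 to 7.63 on the same log2 scale). Complex I genes were bright as well: 34 of the 39 were in the brightest 10% of the probes tested, and 38 were well above background on all 12 arrays. Ndufc2 was the exception, with its spot left out as non-uniform on normal sodium replicate 1, so that its fit rests on 11 arrays. Their median SD within groups was 0.14 (log2), against 0.22 for all probes. The lowest signals were those of Ndufaf7 and Ndufaf1, down to 744 and 823 intensity units.

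The array of normal sodium replicate 1 stood apart on these spots. For each gene the log2 ratio of the processed signal to the median pixel intensity of the same spot was compared with its median over the arrays. The typical deviation was 0.322 on normal sodium replicate 1, against 0.00474 to 0.0225 on the other 11 arrays. It exceeded 0.2 for 25 of 38 complex I genes there, for 2 of 36 on normal sodium replicate 3 (Ndufs5 and Ndufaf4), and for 0 on the other 10 arrays. The same array had 88 non-uniform spots, against 0 to 3 elsewhere, and the lowest array weight (0.245). Comparisons that use the normal sodium group are therefore given with and without it.

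**Figure D1:**
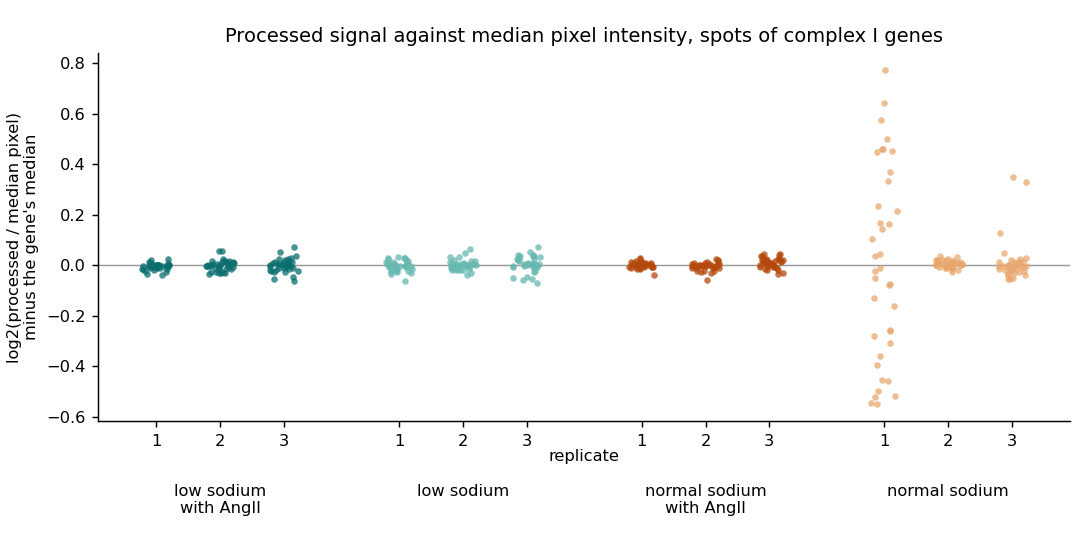
Each point is the spot of 1 complex I gene on 1 array (12 arrays in 4 groups of 3); the y axis is log2 of processed signal over median pixel intensity, minus the gene's median over the arrays. Points lie close to 0 except on normal sodium replicate 1, with 25 of 38 beyond 0.2, and for 2 genes on normal sodium replicate 3.

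The first comparison asked whether salt restriction makes a difference to these genes while AngII is infused. Complex I genes stood higher on low sodium with AngII than on normal sodium with AngII, by small amounts, and no single gene passed the test. The log2 change (low minus normal sodium) was above 0 for 38 of 39 genes, and above 0 for 47.9% of all 20020 probes. Its median was 0.15 over the 39 genes, against -0.01 over all probes. By limma 0 of 39 genes were called at an adjusted p under 0.05, as were 0% of all probes, and the smallest adjusted p was 0.387. Unadjusted, 3 genes (Ndufaf3, Ndufaf5 and Ndufa6) had a p under 0.05 and were higher (5.16% of all probes), and 0 were lower (5.87%). This number was 12 with array weights, 6 with an intensity trend in the variance prior, 0 in the authors' values, and 0 without slide 1 or without slide 2. The shares of all probes under these settings are not given here, so that these counts have no background beside them. All 3 low sodium arrays lay above all 3 normal sodium arrays for 17 genes, where 12.2% of all probes did so, and the opposite held for 0 genes, against 10.4% of all probes.

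All 7 assembly factors were above 0, with a median of 0.25; the 3 largest values of the 39 genes were theirs, and whether they differ from the other genes was not tested. Ndufaf3, which acts with Ndufaf4 in building the Q module, read 3.67, 3.83 and 3.92 on low sodium with AngII, against 3.43, 3.3 and 3.60 on normal sodium with AngII (log2 signal, replicates 1 to 3). The groups did not overlap, and the change was 0.36 ± 0.14 (SE, n = 3 per group, 1.29-fold), with adjusted p = 0.396 by limma. Ndufaf5, an enzyme that hydroxylates an arginine of Ndufs7, read 2.26, 2.23 and 2.33, against 1.92, 1.73 and 2.13. Here too every low sodium array was the higher, by 0.34 ± 0.13 (adjusted p = 0.387 by limma). Its partner protein gene Ndufaf8 stood at 0.19, as did Ndufaf1, a factor for the membrane arm, and neither had an unadjusted p under 0.05. Ndufaf4 stood at 0.25 by its brightest probe and between 0.05 and 0.07 by its 3 dimmer ones. Ndufaf7, a methyltransferase, stood at 0.17, and at 0.30 by its dimmer probe.

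Ndufaf6, another early assembly factor, had the largest value, 0.70 ± 0.42, and by far the widest spread (SD within groups 0.58). It read 3.33, 3.05 and 2.59 on low sodium with AngII, against 1.85, 3.01 and 2.02 on normal sodium with AngII. The groups overlapped, and the slides gave 1.48, 0.04 and 0.57. It has only 1 probe.

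Among accessory subunits, Ndufa6, an N module protein that binds an acyl carrier protein, read 7.12, 7.09 and 7.24 on low sodium with AngII, against 6.84, 6.78 and 6.98 on normal sodium with AngII. The groups did not overlap (0.28 ± 0.12, adjusted p = 0.438 by limma). The membrane arm subunits Ndufb3 and Ndufc2 stood at 0.30 and 0.31, also without overlap, and the remaining membrane arm genes between -0.01 and 0.24. The gene below 0 was Ndufb10, at -0.01 and above 0 in 6 of 26 alternative settings. Core subunits had a median of 0.11, all 7 above 0: Ndufs7, which carries an iron-sulphur cluster next to ubiquinone, stood at 0.24 with overlapping groups, and Ndufv1, which binds NADH, at 0.09 without overlap. Ndufa4 stood at 0.12. Dimmer probes had the opposite sign for Ndufs4 (-0.16, against 0.14 by the brightest), for Ndufa10l1 (-0.09, against 0.13) and for 1 of the 2 dimmer probes of Ndufv3 (-0.10, against 0.14). Ndufb10 also turned sign, standing at 0.07 by its dimmer probe, against -0.01 by its brightest.

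**Figure D2:**
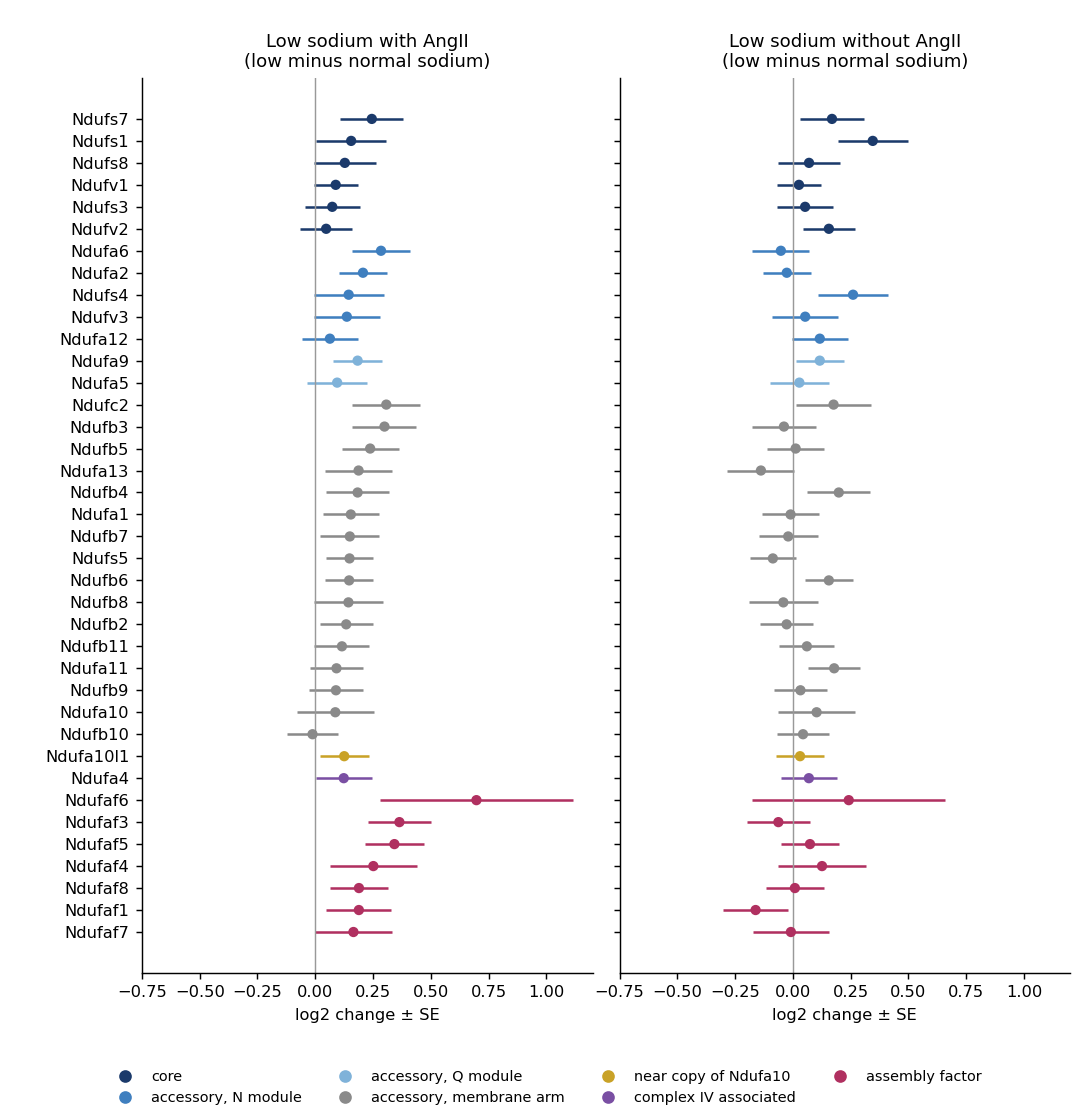
Log2 change (low minus normal sodium) of 38 of the 39 genes, with AngII on the left and without it on the right; points are estimates, lines 1 SE, colours the role of the gene, and genes run down the page by role. With AngII every point but that of Ndufb10 lies above 0; without it 12 points lie below 0.

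**Figure D3:**
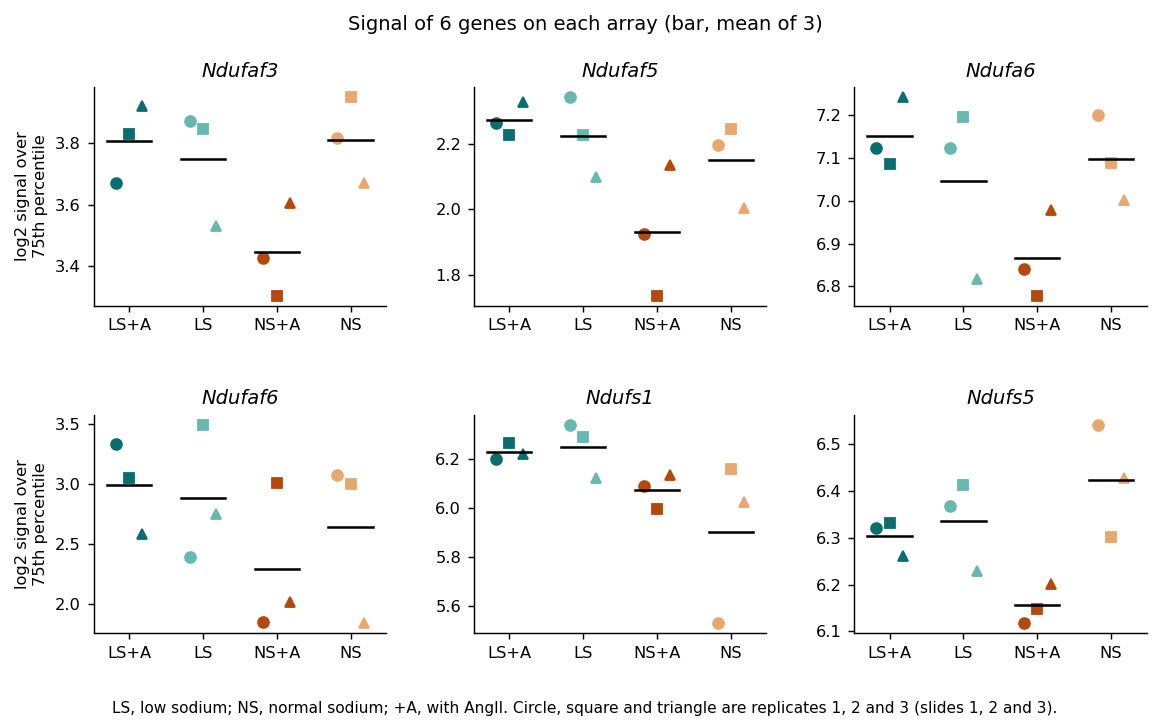
Log2 signal over the array's 75th percentile for 6 genes; markers are replicates, bars group means, and the 4 groups run from low sodium with AngII to normal sodium. Ndufaf3, Ndufaf5 and Ndufa6 show no overlap between low sodium with AngII and normal sodium with AngII; Ndufaf6 is widely spread; Ndufs1 is low and Ndufs5 high on normal sodium replicate 1.

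Each slide carried 1 array of every group. The median change of the 39 genes was 0.19 on slide 1, 0.24 on slide 2 and 0.07 on slide 3. Of the 39 genes 25 were above 0 on all 3 slides, and of all 20020 probes 4075 were. With the slide as a block 3 assembly factors and 0 N module genes had an unadjusted p under 0.05, so that Ndufa6 lost it. With that block 2323 of all 20020 probes had such a p, in either direction. Every group kept 1 position on all slides; what position and what group contribute cannot be told apart. Normal sodium with AngII replicate 2 was the lowest of the 12 arrays for 18 of the 39 genes, and without it the median was 0.12, with 37 genes above 0.

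The size of this shift depended on the normalization, and other bright probes shared it. In the brightest 10% of all probes the median change was 0.11 and 71.9% were above 0, while the 34 complex I genes among them had a median of 0.14 and 33 were above 0. In the dimmest 10% the median of all probes was -0.13. After quantile normalization the median of the 39 genes was 0.08 (32 above 0), after normexp background correction with quantile normalization 0.10 (34 above 0), and in the authors' own values 0.06 (32 above 0). The median of all probes in the authors' values was 0.05, which leaves a difference of 0.02, against 0.16 with the scaling used here. Ndufaf3, Ndufaf5 and Ndufa6, named for their small p in these same data, had values of at least 0.25, 0.23 and 0.21 in the 26 alternative settings. They passed the adjusted threshold in 0 of them. Some settings cannot move a value in this contrast, such as leaving out an array of a group outside it.

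**Figure D4:**
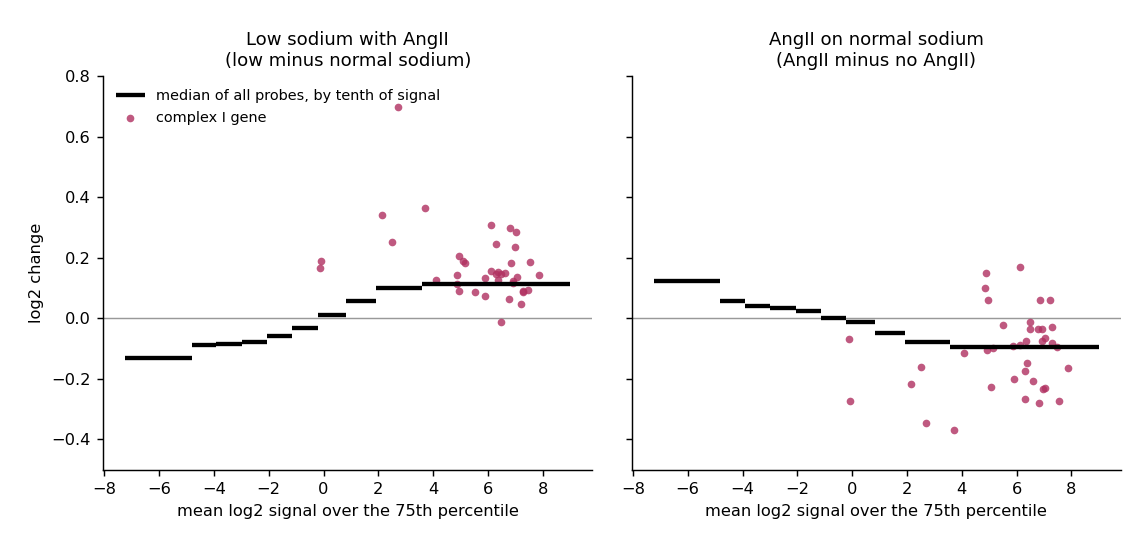
Log2 change against mean log2 signal, for low minus normal sodium with AngII (left) and for AngII minus no AngII on normal sodium (right); red points are the 39 complex I genes and black bars the median of all probes in each of 10 equal classes of signal. The bar of the dimmest class lies at -0.13 on the left and 0.12 on the right, that of the brightest at 0.11 and -0.10, and 34 of the 39 complex I genes lie in the brightest class.

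Other respiratory genes were valued in the same contrast. Of 37 genes of complexes II to V, 32 were above 0 with a median of 0.10 and 0 had an unadjusted p under 0.05; the smallest p belonged to the complex IV genes Cox7b (0.26) and Cox7a2 (0.22) and the ATP synthase gene Atp5pb (0.21). Of 9 measured genes for further complex I proteins outside the Nduf symbols, 7 were above 0, led by the assembly factors Tmem126b (0.29 ± 0.10, adjusted p = 0.364 by limma), Tmem186 (0.32) and Acad9 (0.21). The mitochondrially encoded subunits were not analysed here. Of 12 regulators of mitochondrial biogenesis 8 were above 0, with the nuclear receptor gene Esrra at 0.28 and the ETS factor gene Gabpa at 0.25.

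Macrophage, fibroblast and endothelial markers stood lower on low sodium with AngII. All 9 macrophage markers were below 0 (median -0.54; mean level -0.50 to -0.41 on low sodium with AngII, against -0.08 to 0.07 on normal sodium with AngII), as were 7 of 7 fibroblast markers (median -0.32; 2.20 to 2.45, against 2.53 to 2.76) and 7 of 7 endothelial markers (median -0.29; 0.58 to 0.74, against 0.90 to 0.99). Of the cardiomyocyte markers 8 of 9 were below 0, by a median of -0.07, and their mean levels overlapped (7.30 to 7.55, against 7.48 to 7.63). Smooth muscle markers were below 0 in 6 of 7 cases (median -0.09) and lymphocyte markers in 3 of 4 (-0.31). Other sets went the other way or both ways: 3 of 4 atrial markers were above 0 (median 0.55, between -1.81 and 2.53), as were 4 of 5 nerve and skeletal muscle markers (0.03) and 3 of 6 red cell and neutrophil markers (-0.04). Every marker counted was well above background on all 3 arrays of at least 1 group. Their part in the result was not tested.

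**Figure D5:**
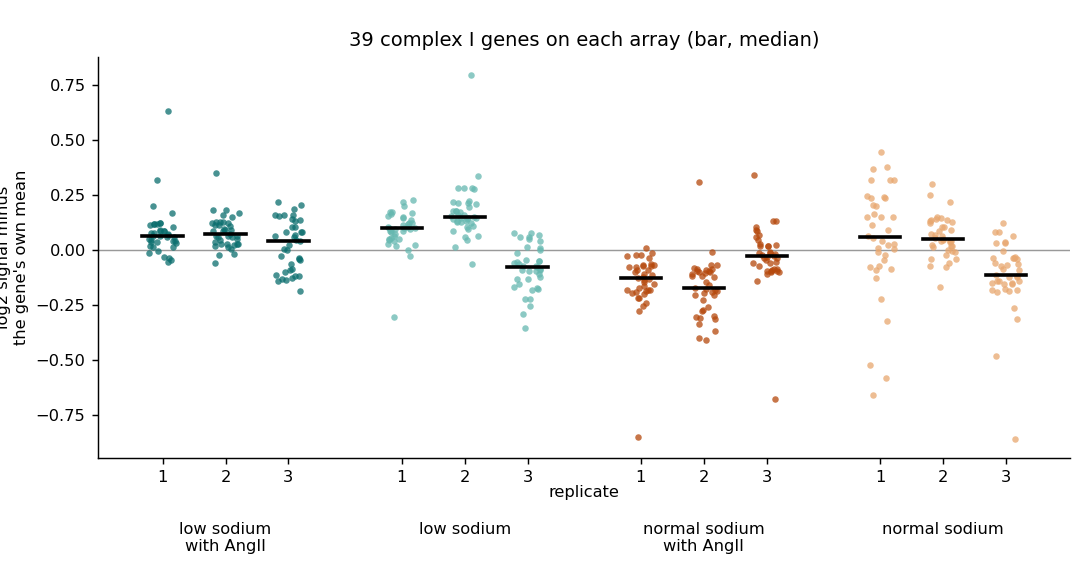
Each point is 1 of the 39 genes on 1 array, as log2 signal minus the gene's own mean over the arrays; bars are medians and arrays are grouped by diet and infusion. Normal sodium with AngII replicates 1 and 2 have the lowest medians (-0.13 and -0.17), low sodium replicate 2 the highest (0.15).

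The second comparison set low sodium against normal sodium without AngII. The log2 change was above 0 for 27 of 39 genes, where 46.6% of all probes were, with a median of 0.05, against -0.02 over all probes. limma called 0 genes and 0% of all probes. At an unadjusted p under 0.05, 1 gene was higher (2.86% of all probes) and 0 lower (4.32%). With the slide as a block 0 genes had such a p, against 1770 of all 20020 probes. After normexp 5 genes were higher, and the share of all probes there is not given. On every low sodium array 3 genes were higher (4.94% of all probes) and 0 lower (6.03%). Among them were the core subunit Ndufv2 and the membrane arm subunit Ndufa11. All 7 core subunits were above 0, with a median of 0.16, and the 7 assembly factors had a median of 0.01. The slides gave medians of 0.05, 0.11 and 0.02.

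The values of Ndufs1 and Ndufs4 hung on 1 array. Ndufs1, the large iron-sulphur subunit of the N module, read 6.34, 6.29 and 6.12 on low sodium, against 5.53, 6.16 and 6.02 on normal sodium. The low value is that of replicate 1, where the Ndufs1 spot deviated by 0.236 in the ratio above. Its change was 0.35 ± 0.15 (adjusted p = 0.685 by limma) with slide values of 0.81, 0.13 and 0.10, and 0.16 without normal sodium replicate 1; after normexp, with all arrays, it was 0.40. Ndufs4, an accessory N module subunit whose loss in mice causes a fatal brain disease, read 4.99, 5.03 and 4.86, against 4.33, 4.96 and 4.81. Its change of 0.26 was 0.07 without that array, and its dimmer probe gave 0.21.

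Values below 0 were led by Ndufaf1 (-0.16), Ndufa13 (-0.14; 0.02 without normal sodium replicate 1) and Ndufs5 (-0.09), which turned sign in 2 of 26 alternative settings and reached 0.31. Leaving out 1 array turned the median of the 39 genes to -0.03 (normal sodium replicate 3) or -0.02 (low sodium replicate 2), and omitting normal sodium replicate 1 gave 0.09 with 32 genes above 0. Low sodium replicate 2 was the highest of the 12 arrays for 13 genes. Fibroblast markers (6 of 7 below 0, median -0.29), endothelial markers (7 of 7, -0.31) and macrophage markers (8 of 9, -0.25) had low values here as well, while 6 of 7 smooth muscle markers were above 0 (0.52), and their part was not tested. In the authors' values the median was 0.02, as it was for all probes. Complexes II to V had 20 of 37 genes above 0, with a median of 0.02, and Atp5f1c of ATP synthase at 0.34.

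The third comparison set AngII against no infusion on normal sodium. Values were above 0 for only 6 of 39 genes, against 49% of all probes, with a median of -0.10 (all probes -0.01). limma called 0 genes and 0% of all probes. Unadjusted, 2 genes were lower at a p under 0.05 (3.74% of all probes) and 0 higher (3.64%). The number lower was 9 without normal sodium replicate 3 and 10 without slide 3, but 0 without replicate 1 or without replicate 2 of normal sodium with AngII. For these fits the shares of all probes are not given here. On every AngII array 5 genes lay lower (6.77% of all probes), namely Ndufaf3, Ndufs5, Ndufa6, Ndufb2 and Ndufv1, and 0 higher (6.2%). The brightest 10% of all probes had a median of -0.10 too, with 31.7% above 0. Slide medians were -0.21, -0.21 and 0.10, so that slide 3 went the other way, and without slide 3 the median was -0.22. Without normal sodium replicate 1 it was -0.08 with 7 genes above 0, and after quantile normalization -0.02. After quantile normalization, after normexp and in the authors' values alike, 15 genes were above 0.

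Assembly factors were below 0 in 7 of 7 cases by their brightest probes, with a median of -0.23. The dimmer probe of Ndufaf7 stood at 0.23, against -0.07 by its brightest, while the dimmer probes of Ndufaf4 were below 0. Ndufaf3 read 3.43, 3.3 and 3.60 on normal sodium with AngII, against 3.82, 3.95 and 3.67 on normal sodium. The groups did not overlap, with a change of -0.37 ± 0.14 (adjusted p = 0.650 by limma), and it stayed between -0.52 and -0.23 over 26 alternative settings. Ndufb3 of the membrane arm stood at -0.28, with an overlap, and its slide 3 value was 0.02.

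Ndufs5, a membrane arm subunit that faces the intermembrane space, read 6.12, 6.15 and 6.20 on normal sodium with AngII, against 6.54, 6.30 and 6.43 on normal sodium. The change of -0.27 ± 0.10 (adjusted p = 0.650 by limma) showed no overlap, but it did not keep its sign. The spot's processed signal was 2.38 times its median pixel intensity on normal sodium replicate 1 and 1.78 times on replicate 3, against 1.34 to 1.44 times on the other 10 arrays. After normexp, which starts from the median pixels, the change was 0.18, and in the authors' values 0.15. The gene's other probe gave -0.15 with the processed signal.

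Upward values included those of Ndufs1 (0.17) and Ndufs4 (0.10), which turned to -0.02 and -0.08 without normal sodium replicate 1. Smooth muscle markers stood higher with AngII, with 5 of 7 above 0 and a median of 0.58. Their mean level was 0.54 to 1.14 on normal sodium with AngII, against -0.10 to 0.31 on normal sodium. Fibroblast markers were above 0 in 5 of 7 cases (median 0.18) and macrophage markers in 7 of 9 (0.14). Endothelial markers were above 0 in 2 of 7 (-0.01) and cardiomyocyte markers in 5 of 9 (0.03). The part of these markers was not tested. Complexes II to V had 9 of 37 genes above 0, with a median of -0.07 and Sdhc of complex II at -0.49.

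AngII on low sodium was set against low sodium alone in the fourth comparison. Genes lay on both sides of 0, with 17 of 39 above it (51.1% of all probes), and the median was -0.02 (all probes 0.00). limma called 0 genes and 0% of all probes, 0 genes had an unadjusted p under 0.05 (1.07% of all probes higher and 0.729% lower), and 1 gene, Ndufs3 of the Q module, lay lower on every AngII array (2.71% of all probes), against 0 higher (3.52%). Ndufa2 of the N module (0.13), Ndufa6 (0.11, but down to -0.05 in the alternative settings) and Ndufaf7 (0.10) led upward, and Ndufs7 (-0.10), Ndufb10 (-0.09) and Ndufa12 of the N module (-0.09) downward, each with adjusted p = 1.00 by limma. All 7 core subunits were below 0, with a median of -0.05. Leaving out low sodium replicate 2 turned the median of the 39 genes to 0.05, with 29 above 0, and leaving out replicate 3 gave -0.07, with 4 above 0.

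Over both infusion states together, all 39 genes were above 0 on low sodium, where 48.3% of all probes were, with a median of 0.10 (all probes -0.01, brightest 10% 0.05). In the brightest 10% of all probes 68.9% were above 0, as were all 34 complex I genes among them. limma again called 0 genes and 0% of all probes; 2 genes were higher at an unadjusted p under 0.05 (4.9% of all probes) and 0 lower (7.66%). They were Ndufs1 (0.25 ± 0.11, adjusted p = 0.369 by limma) and Ndufaf5 (0.21 ± 0.09, adjusted p = 0.372 by limma). Ndufs1 was low on normal sodium replicate 1 (5.53, against 6.16 and 6.02 on replicates 2 and 3). Its change lay between 0.15 and 0.33 with arrays or slides left out. Ndufc2 stood at 0.24 without its normal sodium replicate 1 spot. The count of genes above 0 was 38 without normal sodium replicate 1. In the authors' values it was 31, where 57.2% of all probes were above 0. The median there was 0.07 over the 39 genes and 0.04 over all probes. Slide medians were 0.10, 0.18 and 0.04.

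The number at an unadjusted p under 0.05 was 0 with the slide as a block, against 2787 of all 20020 probes. It was 16 with array weights, 7 with an intensity trend, and 0 to 7 with arrays left out (7 without low sodium replicate 3). The shares of all probes under these other settings are not given here. In the same contrast fibroblast markers were below 0 in 7 of 7 cases (median -0.30, 5 at an unadjusted p under 0.05), endothelial markers in 7 of 7 (-0.30, 3) and macrophage markers in 8 of 9 (-0.37, 7). Smooth muscle markers were above 0 in 5 of 7 (0.25) and atrial markers in 3 of 4 (0.48). Their part was not tested.

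Over both diets, 8 of 39 genes were above 0 with AngII (48.4% of all probes), with a median of -0.06. The brightest 10% of all probes stood at -0.04, with 30% above 0. 0 genes had an unadjusted p under 0.05, against 1.83% of all probes higher and 1.06% lower, and limma called 0 genes and 0% of all probes. Ndufs5 (-0.15), Ndufaf3 (-0.16) and Ndufaf8 (-0.14) had the smallest p among lower values, Ndufs5 turning sign in 2 of 26 alternative settings (up to 0.05), and Ndufs1 and Ndufb4 of the membrane arm stood at 0.07 and 0.05. Without normal sodium replicate 1 the median was -0.03, and Ndufs1 stood at -0.02. Without slide 2 the median was 0.0017, with 20 genes above 0.

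Whether the response to AngII differs between diets was tested as an interaction, in which a positive value means a higher response under salt restriction. It was above 0 for 29 of 39 genes (50.6% of all probes), with a median of 0.08, against 0.01 over all probes and 0.11 in their brightest 10%. In that brightest 10%, 67.6% of the probes were above 0. limma called 0 genes and 0% of all probes, and 0 genes had an unadjusted p under 0.05 (2.82% of all probes higher and 2.26% lower). Ndufaf3 had the smallest p, at 0.43 ± 0.19 (adjusted p = 0.848 by limma), positive on all 3 slides (0.19, 0.63 and 0.46), followed by Ndufa6 (0.34) and Ndufaf1 (0.35). All 7 assembly factors were above 0 by their brightest probes, with a median of 0.27. Dimmer probes of Ndufaf4 stood at -0.06, 0.10 and -0.04, against 0.13 by its brightest. That of Ndufaf7 stood at -0.07, against 0.17. The median of the 39 genes lay between 0.03 and 0.16 over the alternative settings: it was 0.04 without low sodium replicate 3, 0.15 without low sodium replicate 2 or normal sodium with AngII replicate 3, 0.14 without normal sodium replicate 3 and 0.16 without slide 3. Smooth muscle markers were below 0 in 7 of 7 cases here (median -0.63, 2 at an unadjusted p under 0.05). Fibroblast markers were below 0 in 4 of 7 (-0.27), macrophage markers in 6 of 9 (-0.14) and endothelial markers in 2 of 7 (0.03). The part of these markers was not tested. Among values below 0 were Ndufs1 (-0.19), which stood at 0.06 without slide 1, and Ndufv2, an iron-sulphur subunit of the N module (-0.11). The spots of Ndufaf3, Ndufaf1, Ndufs1 and Ndufv2 were among the 25 that deviated by more than 0.2 on normal sodium replicate 1.

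Most of the 39 genes were high or low on the same arrays. Over the 12 arrays, which share their scaling and slides, the 741 pairs had a median Pearson's r of 0.52, and 688 were above 0. The highest was 0.96, between the membrane arm genes Ndufb3 and Ndufb5. Ndufs1 and Ndufs4 correlated at 0.95 with each other, and had low median correlations with the other genes (0.24 and 0.22). They were low together on normal sodium replicate 1, where Ndufa13 was at its highest (7.99, against 7.35 to 7.69 elsewhere) and 11 genes were at the highest of their 12 values.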

How the data were processed

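RNA of 12 rat left ventricles was measured on 1-colour Agilent arrays, 1 array per sample. Per the file headers, spot intensities were read with Agilent Feature Extraction 10.7.3.1, which also gives a background-subtracted processed intensity and flags for spots that are non-uniform, saturated or well above background; the submitters' processing notes name Feature Extraction 11.0.1.1. The authors also deposited a matrix of processed values on a log2 scale without centring per gene (column medians 8.81 to 8.95, slope on log2 scanner signal 0.87 to 1.00 per array); their background correction and normalization are not given in the sources used here, and they served as an alternative.

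Control spots and non-uniform or population-outlier spots were left out, spots of a probe were averaged, and log2 of the processed intensity minus the array's 75th percentile over probes was taken. Probes well above background on all 3 arrays of at least 1 group were tested (20020 probes, 11211 genes) with limma 3.58.1 in R 4.3.3 (lmFit and eBayes, all 4 groups in 1 fit, Benjamini-Hochberg over all probes at 0.05, 7 contrasts). All changes are log2 differences with their SE. The contrasts share arrays, so that their values are not independent of each other. Probes were named by accession through a RefSeq table (assembly GRCr8). The script was tested on simulated data.

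Members and lists were chosen with earlier results of these data known. In each contrast the text names, in each direction, the 3 genes with the smallest p, and core subunits and assembly factors where they help. Ndufb2, Ndufb3, Ndufb5, Ndufa11 and Ndufc2 were otherwise named after their values were seen. Values of 1 gene of the set, counted in the totals and medians, are not reported here. Nothing in the labels states how the 3 samples of a group relate, so p-values measure the spread between these samples.

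Replicate numbers coincided with slides. Deviations from group means correlated above 0.1 in 17 of 18 same-number pairs (lowest 0.05). Of pairs with differing numbers 5 of 36 did so (median -0.18). Deviations within a group sum to 0, so positive same-number correlations by themselves bring negative ones for differing numbers. The values for differing numbers are therefore no separate evidence. Arrays of 1 slide thus deviated together, and slide and any pairing of samples cannot be told apart. The numbers were not taken as pairing, and the main fit has no slide term. The slide as a block was an alternative setting. The precision is limited by the 3 arrays per group. Alternatives were 26 settings of scaling, background, filter, weights, block and left-out arrays, 1 of them (75th percentile over spots) chosen after seeing the data. In a given contrast some of them cannot move a log2 change, such as leaving out an array of a group outside it.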

Additional observations from a re-analysis of the deposited data

How the results depend on the processing

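Under the 26 alternative settings 0 complex I genes were called in any of the 7 contrasts. With low sodium and AngII the median over the 39 genes, 0.15, was 0.23 with arrays centred on their medians and 0.062 in the authors' values, and 0.10 to 0.20 with arrays left out. With a replicate block (the slide) 0 genes were called in this contrast. The median was again 0.15, but every slide carried an array of each group, so the block could not move it. This block is not a pairing, and it called 0 genes in the other contrasts as well. For AngII on normal sodium the median of -0.10 ranged from -0.22 to -0.05 with arrays left out, and for low sodium without AngII the median of 0.05 ranged from -0.034 to 0.11. The cause of these shifts was not tested. Scaling on the 75th percentile over spots, chosen after seeing the data, gave 0.11 for low sodium with AngII. Over all 20020 probes, none called before, array weights called 150 for low sodium with AngII and 137 for low sodium over both infusion states, and up to 23 were called with arrays left out.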
